A study of Mus musculus with 6 samples.

Results

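The 10 genes described here encode laminin chains and the proteins that link laminin into basement membranes. They are the alpha chains Lama2, Lama4 and Lama5, the beta chains Lamb1 and Lamb2, the gamma chain Lamc1, the nidogens Nid1 and Nid2, and the heparan sulphate proteoglycans perlecan (Hspg2) and agrin (Agrn). They were chosen by name, with no threshold on a value but with earlier results of these data known, and all 10 were found among the 26728 entries of the deposited table. RNA was sequenced from the carotid body, a chemosensory organ in the neck that monitors blood oxygen, and from the adrenal medulla, the inner part of the adrenal gland that secretes catecholamines. Both came from untreated adult C57/BL6 mice of the Charles River stock, with no mutant allele or transgene in either group, and sex and exact age are not given in the sources used here. There were 3 libraries per tissue, each made from 18 carotid bodies or 10 adrenal medullas pooled from 10 mice, so n counts pools and p-values measure only the spread between pools. The pools are called CB1, CB2 and CB3 for the carotid body and AM1, AM2 and AM3 for the adrenal medulla.

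A basement membrane is a thin sheet of matrix on which endothelial and epithelial cells rest and which wraps muscle cells, fat cells, pericytes and Schwann cells. Each laminin is a trimer of an alpha, a beta and a gamma chain that polymerises at the cell surface, where integrins and dystroglycan hold it. Nidogens bridge the laminin network to type IV collagen, and perlecan and agrin add further links to collagen, laminin and dystroglycan. Lama4 is the typical alpha chain of vessels and Lama2 that of muscle and Schwann cells, and Lamb2 is known from synaptic, vascular and kidney basement membranes.

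Levels are the deposited RPKM, in which the authors scaled reads to mRNA length and to the size of the library, recovered here as 13266225 to 16445925 reads. The members were read 42 to 4631 times per library, which gives a counting precision of 15.4% to 1.47% that covers counting error only. Differences are carotid body minus adrenal medulla on the log2(RPKM + 1) scale, which understates low genes, and a gene was called at a limma adjusted p under 0.05 over 13357 genes. The libraries are of whole tissue, so fewer cells of a type and less RNA per cell cannot be told apart. Both tissues held transcripts of the catecholamine enzyme gene Th, at 434 to 646 RPKM in the carotid body and 887 to 2489 RPKM in the adrenal medulla. The adrenal medulla libraries also held cortex transcripts, with Star at 2153 to 2950 RPKM. Of the cortex markers, 10 of 10 were called higher there, where 7.73% of all tested genes were. Among them, Cyp11b2 and Nr5a1 were under 1 RPKM in every carotid body library, so their place among the tested genes already depended on the adrenal medulla. Fat transcripts set single pools apart, with the 10 adipocyte markers summing to 3169 RPKM in CB2 against 253 and 437 RPKM in CB1 and CB3. The same sum was 739 RPKM in AM3, 502 RPKM in AM1 and 228 RPKM in AM2.

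All 10 genes were read more in the carotid body, with 3 of 3 carotid body pools above 3 of 3 adrenal medulla pools for 10 of 10, against 20.6% of the 19505 genes with any read. Of the 9 that reached 1 RPKM in at least 3 libraries, limma called 8 higher in the carotid body and 0 lower (0 lower also at an unadjusted p under 0.05 and with voom), where 14.2% of all tested genes were called higher and 7.73% lower. Lamb1 was tested and not called, and Hspg2 did not reach the filter. Lama5 passed the filter through its carotid body libraries alone, so its presence among the tested genes already depended on that tissue. Nid2 reached 1 RPKM in no adrenal medulla library but AM2 (1.10 RPKM), so it too needed carotid body libraries to pass. Of the 9, 7 had a carotid body mean at least 2 times the adrenal one, and the exceptions were Lamb1 and Agrn. The median log2 difference of the 9 tested members was 1.32, beside 0.02 for all tested genes.

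**Figure D1:**
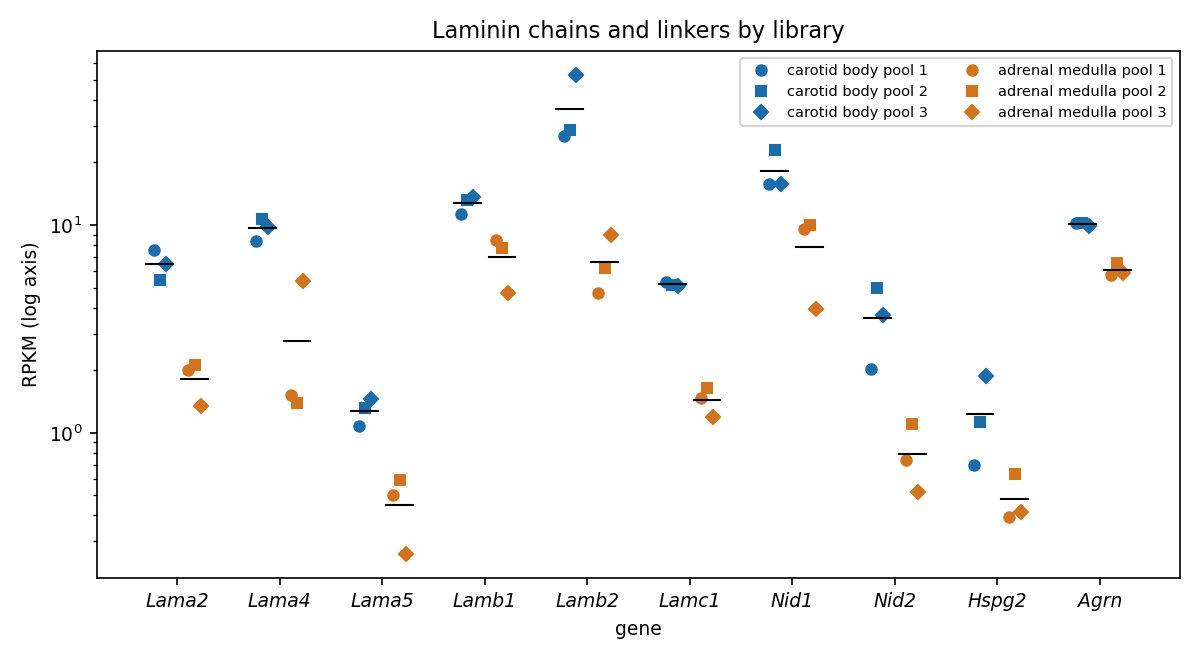
RPKM of each gene on a log axis in 3 carotid body pools (blue) and 3 adrenal medulla pools (orange), with marker shapes for pools 1 to 3 and a bar at each tissue mean. Every blue point lies above every orange point of the same gene, and Lamb2 reaches the highest level, 52.9 RPKM in CB3.

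Upstream sequences are shown for the pair of beta chains and for the alpha chains Lama2 and Lama5, the pairs of like chains for which both windows are listed. The table of RefSeq promoters on GRCm38.p6 gave windows of 250 bases before the annotated start for 7 of 10 members, and Lama4, Lamc1 and Nid2 have no entry in it. Each window was searched on both strands for the GC box GGGCGG, the TATA box TATAAA and the CCAAT box CCAAT. The search also took ACGTG, a form of the hypoxia-response core, whose other forms were not searched. None of these motifs overlaps another of the set in these windows. Capitals mark a match, printed as it reads on the gene's strand, so a GC box on the other strand appears as CCGCCC.
Lamb1, chr12:31265043-31265292, plus strand: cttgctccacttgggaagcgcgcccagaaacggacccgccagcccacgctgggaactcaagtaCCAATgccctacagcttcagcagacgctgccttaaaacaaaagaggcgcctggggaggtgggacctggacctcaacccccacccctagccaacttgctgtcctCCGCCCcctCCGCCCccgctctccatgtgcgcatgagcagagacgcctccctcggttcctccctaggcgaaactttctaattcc
Lamb2, chr9:108479612-108479861, plus strand: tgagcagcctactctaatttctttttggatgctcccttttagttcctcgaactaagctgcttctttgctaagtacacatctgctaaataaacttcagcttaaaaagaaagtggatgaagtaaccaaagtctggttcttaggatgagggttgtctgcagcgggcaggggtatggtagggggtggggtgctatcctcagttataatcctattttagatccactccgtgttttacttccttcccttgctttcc
Lama2, chr10:27616943-27617192, minus strand: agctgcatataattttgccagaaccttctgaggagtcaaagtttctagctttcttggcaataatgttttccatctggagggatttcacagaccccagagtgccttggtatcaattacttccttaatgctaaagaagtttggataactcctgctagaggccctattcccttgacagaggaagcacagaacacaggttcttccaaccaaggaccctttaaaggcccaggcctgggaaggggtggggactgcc
Lama5, chr2:180225860-180226109, minus strand: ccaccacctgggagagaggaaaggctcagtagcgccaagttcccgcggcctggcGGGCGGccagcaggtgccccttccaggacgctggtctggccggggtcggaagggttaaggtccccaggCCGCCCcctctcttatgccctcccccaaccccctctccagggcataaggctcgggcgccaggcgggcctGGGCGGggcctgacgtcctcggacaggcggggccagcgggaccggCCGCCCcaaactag
The window of Lamb1 held 2 GC boxes and 1 CCAAT box at 62.0% G and C, and that of Lamb2 held no match at 43.6%. The window of Lama2 held no match at 47.2%, and that of Lama5 held 4 GC boxes at 72.4%. Among 32851 promoter windows of the same length, 32.7% held the GC box, 33.8% the CCAAT box, 12.4% the TATA box and 16.6% ACGTG. Their median G and C content was 52.4%. No TATA box or ACGTG was found in any of the 8 member windows, of which Agrn has 2. A match is only a description of letters, and the absence of one says only that these letters are not in this window.

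The alpha chains give each laminin its receptor specificity, and Lama2, Lama4 and Lama5 were all called higher in the carotid body, with Lama4 and Lama2 the main ones in both tissues. Lama4 was at 8.40, 10.7 and 9.76 RPKM in CB1, CB2 and CB3 and at 1.53, 1.39 and 5.35 RPKM in AM1, AM2 and AM3. The groups did not overlap, but AM3 stood well above the other adrenal pools. The means were 9.62 ± 1.16 against 2.76 ± 2.25 RPKM (SD, n = 3 each), a log2 difference of 1.65 ± 0.37 (SE, limma adjusted p = 0.0128). Without AM3 the difference was 2.11 (adjusted p = 2.07e-04), and without AM2 the call was lost at an adjusted p of 0.0510. AM3 also held the most adipocyte marker transcripts of its tissue and the most of the matrix glycoprotein gene Sparc, 2389 RPKM against 557 and 806, and the part of these in the Lama4 value was not tested.

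Lama2, whose loss causes muscular dystrophy with a myelin defect, was at 7.58, 5.42 and 6.47 RPKM in the carotid body pools and 2.00, 2.11 and 1.34 RPKM in the adrenal medulla pools. Its groups were well separated, with the lowest carotid body pool more than 2 times the highest adrenal pool. The difference was 1.41 ± 0.22 on the log2 scale (limma adjusted p = 0.00178), and it was called in 16 of 16 settings. Lama5, the alpha chain of many epithelia and of mature vessels, was low, at 1.08, 1.31 and 1.45 RPKM against 0.503, 0.590 and 0.261 RPKM. Its log2 difference of 0.66 ± 0.16 had an adjusted p of 0.0178, which became 0.0610 without CB3, 0.0720 under quantile scaling and 0.0577 with neither CB2 nor AM3. On recovered reads with voom, where no pseudocount of 1 RPKM compresses low values, the Lama5 difference was 1.58.

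The beta chains were the most unequal pair. Lamb2 showed the largest difference of the members, at 26.7, 28.6 and 52.9 RPKM in CB1, CB2 and CB3 and 4.72, 6.19 and 8.92 RPKM in the adrenal medulla pools. Pool 3 was the highest of its tissue in both organs, yet the lowest carotid body pool was well above AM3. The means were 36.1 ± 14.6 against 6.61 ± 2.13 RPKM (SD, n = 3), a log2 difference of 2.25 ± 0.32 (limma adjusted p = 0.00128), called in 16 of 16 settings. Lamb1, the beta chain of most embryonic and many adult laminins, was at 11.3, 13.2 and 13.6 RPKM against 8.51, 7.75 and 4.73 RPKM. The pools did not overlap, but the difference of 0.81 (95% interval 0.23 to 1.38) narrowly missed the threshold at an adjusted p of 0.0521. It was called with pool numbers as a replicate block (adjusted p = 0.0459), under median-ratio scaling (0.0360), under quantile scaling (0.0397), with voom (0.0483) and without AM1 (0.0482).

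**Figure D2:**
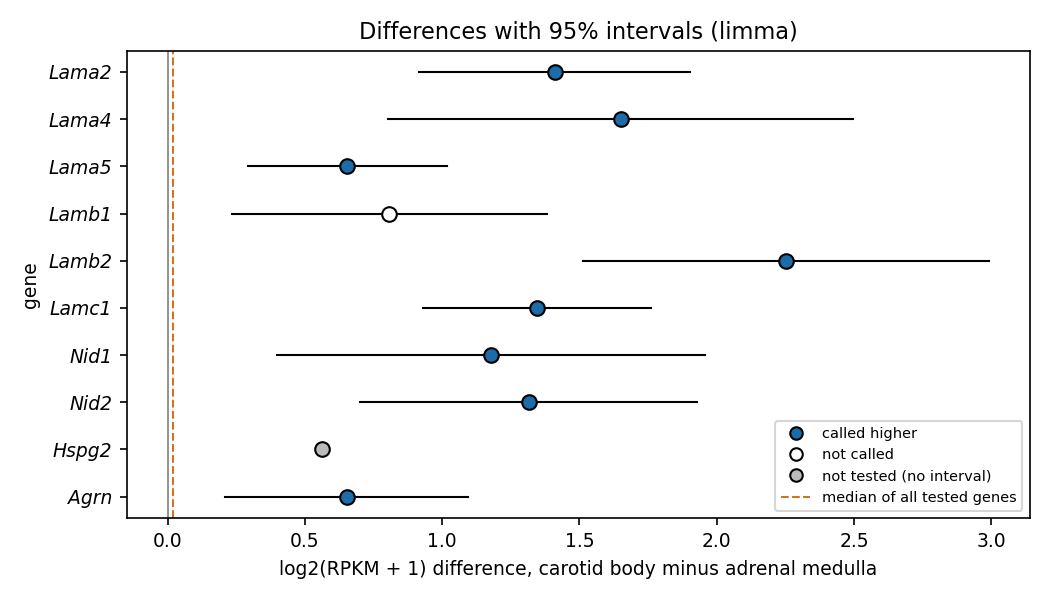
Log2(RPKM + 1) difference, carotid body minus adrenal medulla, for each gene with its 95% interval from limma; filled points were called, the open point (Lamb1) was not, and the grey point (Hspg2) was not tested. Lamb2 lies farthest from the dashed median of all tested genes at 0.02, and Lama5 and Agrn lie nearest of those called.

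The make-up of the beta chains differed accordingly. Lamb2 made up 70.3%, 68.3% and 79.5% of the summed RPKM of the 3 beta genes in CB1, CB2 and CB3. In the adrenal medulla it made up 35.6%, 44.4% and 65.3%, so AM3 came near the carotid body pools. The log2 ratio of Lamb1 to Lamb2, with 1 RPKM added to each gene, was -1.37 ± 0.45 against 0.07 ± 0.78 (SD, n = 3). This gave p = 0.10 in an exact two-sided permutation test, the smallest p that 3 against 3 allows, and 0.50 adjusted over the 5 ratios of related members that were tested. The other 4 ratios had overlapping pools and larger p. The ratio of Lama4 to Lama5 differed by 0.99 (exact permutation p = 0.30). Lama2 to Lama4 differed by -0.24 (0.80), Nid1 to Nid2 by -0.14 (0.80) and Hspg2 to Agrn by -0.09 (0.70). Such a p does not show that the ratios are alike, and the direction of the last 3 reversed in some alternatives. The added 1 RPKM shifts ratios that hold a low gene, such as Nid2 or Hspg2, so these are not plain RPKM ratios. Nid1 to Nid2 reversed with 5 added, and Hspg2 to Agrn with 0.1 added.

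**Figure D3:**
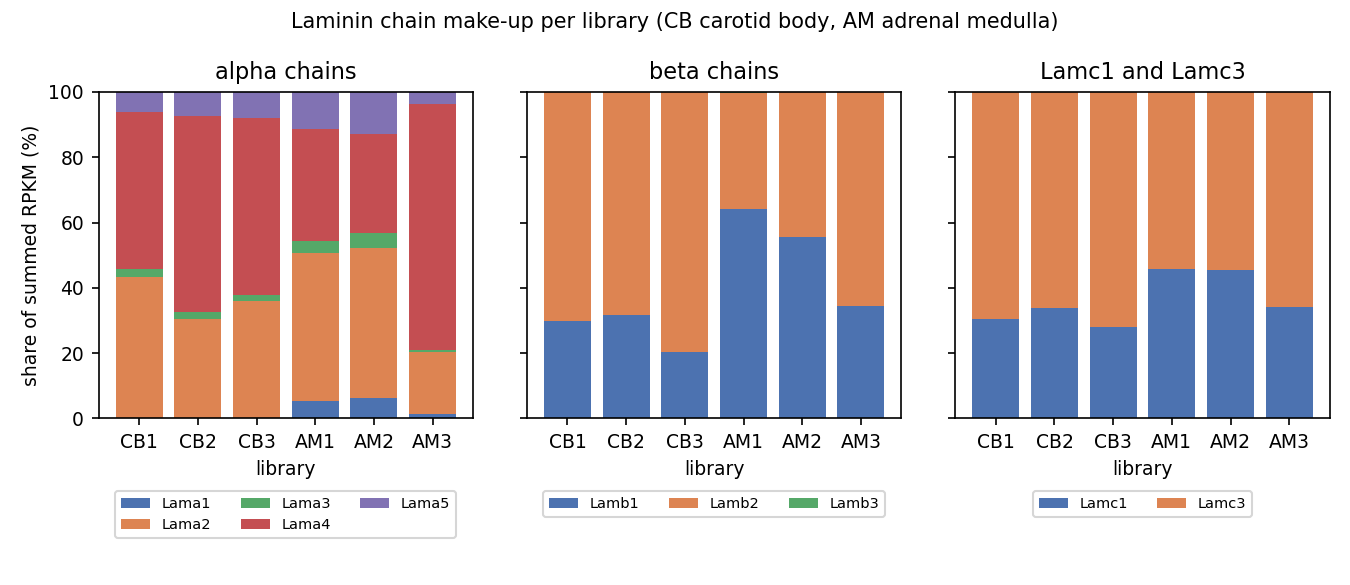
Stacked shares (%) of the summed RPKM of the alpha chains, of the beta chains, and of Lamc1 and Lamc3 in each library, carotid body pools CB1 to CB3 and adrenal medulla pools AM1 to AM3. Lamb2 fills 68.3% to 79.5% of the beta bar in the carotid body and 35.6% to 65.3% in the adrenal medulla. AM3 differs from AM1 and AM2 in every panel, with Lamc3 at 65.8% in AM3 against 54.2% and 54.7%.

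Among alpha chains the shares of Lama4 and Lama2 overlapped between tissues. Lama4 took 48.1% to 59.9% in the carotid body, and 34.4%, 30.3% and 75.3% in AM1, AM2 and AM3. Lama2 took 30.3% to 43.4% in the carotid body and 45.1%, 45.9% and 18.9% in the adrenal medulla. The summed alpha level was 17.8 ± 0.288 RPKM in the carotid body and 5.38 ± 1.50 RPKM in the adrenal medulla, the summed beta level 48.8 ± 15.5 against 13.6 ± 0.332, and the sum of Lamc1 and Lamc3 16.9 ± 1.63 against 3.45 ± 0.210 (SD, n = 3). RPKM divides by the whole listed mRNA, 4.913 to 14.201 kb for the members, while the amplification began at the poly(A) tail. How evenly these long mRNAs were covered was not tested, so levels set between genes are less certain than differences between tissues of 1 gene.

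The gamma chain Lamc1, part of most laminins and the chain that binds nidogen, varied little within tissues. It was at 5.32, 5.12 and 5.10 RPKM in the carotid body and 1.47, 1.65 and 1.20 RPKM in the adrenal medulla. The spread inside either tissue was small beside the gap between them, a log2 difference of 1.35 ± 0.18 (limma adjusted p = 9.07e-04) that was called in 16 of 16 settings. Of 4 other laminin chains examined, the gamma chain Lamc3 was the only one to reach the filter. It stood at 12.1, 9.98 and 13.1 RPKM in the carotid body and 1.74, 1.98 and 2.31 RPKM in the adrenal medulla (log2 difference 2.08, adjusted p = 1.89e-04). Lamc3 therefore held 66.1% to 72.1% of the summed RPKM of Lamc1 and Lamc3 in the carotid body and 54.2% to 65.8% in the adrenal medulla. Lama1, Lama3 and Lamb3 stayed under 0.5 RPKM in every library, so none of the 3 reached the filter. Lama1 went the other way from the members, with no read in the carotid body against 31, 39 and 15 reads in the adrenal medulla, and took 5.46%, 6.25% and 1.35% of the alpha sum there. With no filter on low values Lama1 was called lower (adjusted p = 0.0310) and Lama3 higher (0.0409).

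The nidogens, which join laminin to type IV collagen, were both higher in the carotid body. Nid1 was at 15.8, 23.0 and 15.7 RPKM against 9.61, 9.99 and 3.96 RPKM. The groups were apart, although CB2 was high and AM3 low within their tissues. The log2 difference was 1.18 ± 0.34 (limma adjusted p = 0.0388). The call ended without CB1 (0.0864), CB2 (0.122) or CB3 (0.0790), with no filter (0.0633), and with neither CB2 nor AM3, where the difference was 0.63 (0.0541). Nid2, the less abundant nidogen, was at 2.03, 5.002 and 3.70 RPKM against 0.742, 1.10 and 0.520 RPKM, a log2 difference of 1.32 ± 0.27 (adjusted p = 0.00803) called in 15 of 15 settings. CB1 was the lowest of its tissue. On GRCm38 Nid2 overlaps Rtraf on the opposite strand, a gene at 110 to 166 RPKM in these libraries under the name 2700060E02Rik, with no call between tissues. Since the sources used here do not say whether strand was kept, the Nid2 level is uncertain.

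Of the proteoglycans, agrin, the organiser of the neuromuscular synapse that also sits in vessel and nerve basement membranes, was at 10.2, 10.2 and 9.85 RPKM in the carotid body and 5.73, 6.60 and 5.89 RPKM in the adrenal medulla. Its pools were tightly grouped in both tissues and did not overlap. The log2 difference of 0.65 ± 0.19 (limma adjusted p = 0.0437) was near the threshold. The call ended without any 1 of the 6 pools, at adjusted p of 0.0503 to 0.131, and also under quantile scaling (0.0634), under median-ratio scaling (0.0517) and with neither CB2 nor AM3 (0.0623). Perlecan, a large proteoglycan of nearly all basement membranes, was at 0.699, 1.13 and 1.87 RPKM in the carotid body and 0.393, 0.636 and 0.415 RPKM in the adrenal medulla. Its pools did not overlap, though 0.699 and 0.636 lie close. With no filter on low values, its log2 difference of 0.56 was not called (adjusted p = 0.106). The 14.201 kb listed mRNA of perlecan is the longest of the members, and its 770 reads over the carotid body pools and 301 over the adrenal pools exceed the 754 and 168 of Nid2.

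**Figure D4:**
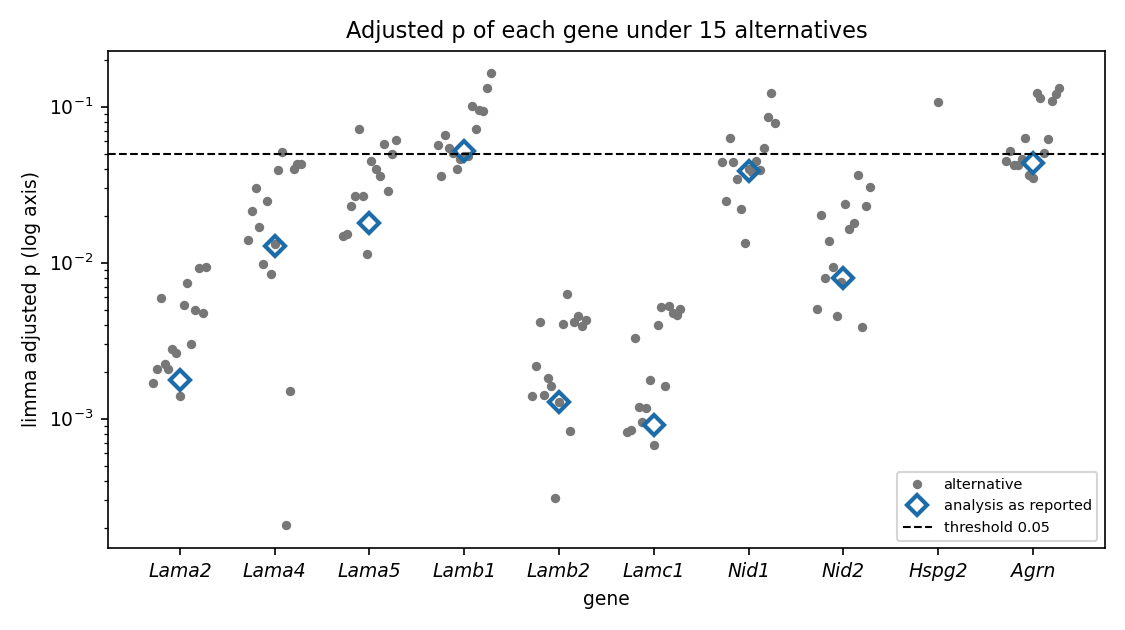
Limma adjusted p (log axis) of each gene in the analysis as reported (open diamonds) and in up to 15 alternatives (grey points), with the dashed line at 0.05. All points of Lama2, Lamb2, Lamc1 and Nid2 lie under the line, those of Lama4, Lama5, Lamb1, Nid1 and Agrn lie on both sides, and Hspg2 was tested in 1 alternative only.

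Markers of several cell types differed between the tissues as well. The 12 smooth muscle and pericyte markers summed to 2586 to 3129 RPKM in the carotid body and 123 to 125 RPKM in the adrenal medulla. The largest part of the carotid body sum was Rgs5 alone, at 1465 to 1773 against 21.8 to 35.8 RPKM. Of the 12, 11 were called higher, where 14.2% of all tested genes were, and Acta2 was at 456 to 830 against 21.1 to 23.3 RPKM. The 10 Schwann cell and glia markers summed to 451 to 471 against 96.7 to 108 RPKM, with 9 of 9 tested called higher and the glial calcium-binding protein gene S100b at 117 to 155 against 10.3 to 16.1 RPKM. Endothelial markers, at 560 to 678 against 265 to 310 RPKM, were called higher for 7 of 12, among them Pecam1 and Cdh5, while Kdr was not. Fibroblast markers were called higher for 10 of 10, at 2466 to 3164 against 80.3 to 185 RPKM. No defining marker of these 4 lists was at 0 in either tissue. Of 9 tested adipocyte markers limma called 0, with 0 also at an unadjusted p under 0.05 and with voom. Of the skeletal muscle list, 1 of 3 tested genes (Tnnt3) was called higher, Acta1 was at 14.3 to 21.4 against 11.6 to 19.8 RPKM, and Ckm and Myh1 were under 0.25 RPKM in every library, while Tnnc2 had no read in the adrenal medulla. The 7 genes of that list summed to 19.6 to 27.4 against 14.9 to 23.3 RPKM. Csf1r, of 3 tested leukocyte markers, and Lyve1, of 4 lymphatic markers, were called higher, and Prox1 of the lymphatic list lower. The smooth muscle markers Myh11, Cnn1 and Cspg4, the glia marker Prx, and Tnnt3 were under 1 RPKM in every adrenal medulla library. They passed the filter through the carotid body alone, and Prox1 passed it through the adrenal medulla alone. Their place among the tested genes already depended on that tissue. Of 8 catecholamine cell markers, Ddc was called higher and 6 lower, beside 14.2% and 7.73% of all tested genes. The part of these cell types in the differences of the laminin and linker genes was not tested.

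The other genes of the pathway also leaned to the carotid body, unevenly by group. Over 9 lists of 93 genes that hold laminin partners, receptors and modifiers, 69 genes were tested, 29 were called higher and 3 lower, beside 14.2% and 7.73% of all tested genes. Of the 29, 8 (Ntn4, Itga7, Itgb4, Sgca, Sgcd, Lrp4, Mmp9 and Prss12) were under 1 RPKM in every adrenal medulla library and passed the filter through the carotid body alone, so their place among the tested genes already depended on that tissue. Extl1, called lower, passed through the adrenal medulla alone. Receptors of laminin were called higher for 4 of 7 tested, 2 of them (Itgb4 and Itga7) among those 8, and lower for 0, with the same counts by voom and 0 lower at an unadjusted p under 0.05. Itgb4, the integrin beta chain of hemidesmosomes and myelinating Schwann cells, was at 7.92, 9.37 and 14.8 against 0.326, 0.398 and 0.178 RPKM (log2 difference 3.13, limma adjusted p = 5.97e-05). Itga7, a laminin-binding alpha chain of muscle, differed by 2.36. Bcam, the Lutheran receptor for Lama5-containing laminins, differed by 2.29, and dystroglycan (Dag1) by 1.05. Itgb1, the shared integrin beta chain, was at 89.2 to 96.8 against 63.9 to 80.2 RPKM and was not called (0.35, adjusted p = 0.287). Itga1 and Itga6 were not called either, though Itga6 was called without AM1 (0.97, adjusted p = 0.0376).

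The complex that ties dystroglycan to the cytoskeleton had 5 of 10 tested genes called higher, beside 14.2% of all tested genes. They were Sgcd (2.03) and Sgca (1.70), which encode sarcoglycans, utrophin (Utrn, 1.83), sarcospan (Sspn, 1.66) and alpha-dystrobrevin (Dtna, 0.96). Sgcd and Sgca are among those 8 that passed the filter through the carotid body alone. The call of Dtna ended without CB2 (adjusted p = 0.0767) and with neither CB2 nor AM3 (0.0525). Dystrophin itself (Dmd) was at 2.34 to 4.34 against 2.13 to 2.93 RPKM and was not called. None of the 7 enzymes of dystroglycan glycosylation, which build the laminin-binding sugar, was called by limma (0 also at an unadjusted p under 0.05 and with voom), with a median log2 difference of 0.09. The smallest adjusted p among them was 0.216, for Large (-0.60), which was called lower without AM3 (-0.90, 0.0245) and with neither CB2 nor AM3 (-1.06, 0.0112). Of the agrin receptor pathway, Lrp4, the receptor subunit that binds agrin and also one of those 8, was called (0.66, adjusted p = 0.0282) at 1.20 to 1.40 against 0.151 to 0.695 RPKM. That call ended without any 1 carotid body pool (0.0657, 0.0608 and 0.0857), without AM2 (0.0723), under quantile scaling (0.102) and with neither CB2 nor AM3 (0.0609). Musk, the kinase of that receptor, ranged from 0.788 to 6.67 RPKM in the carotid body and from 0.0533 to 10.5 RPKM in the adrenal medulla and was not called.

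**Figure D5:**
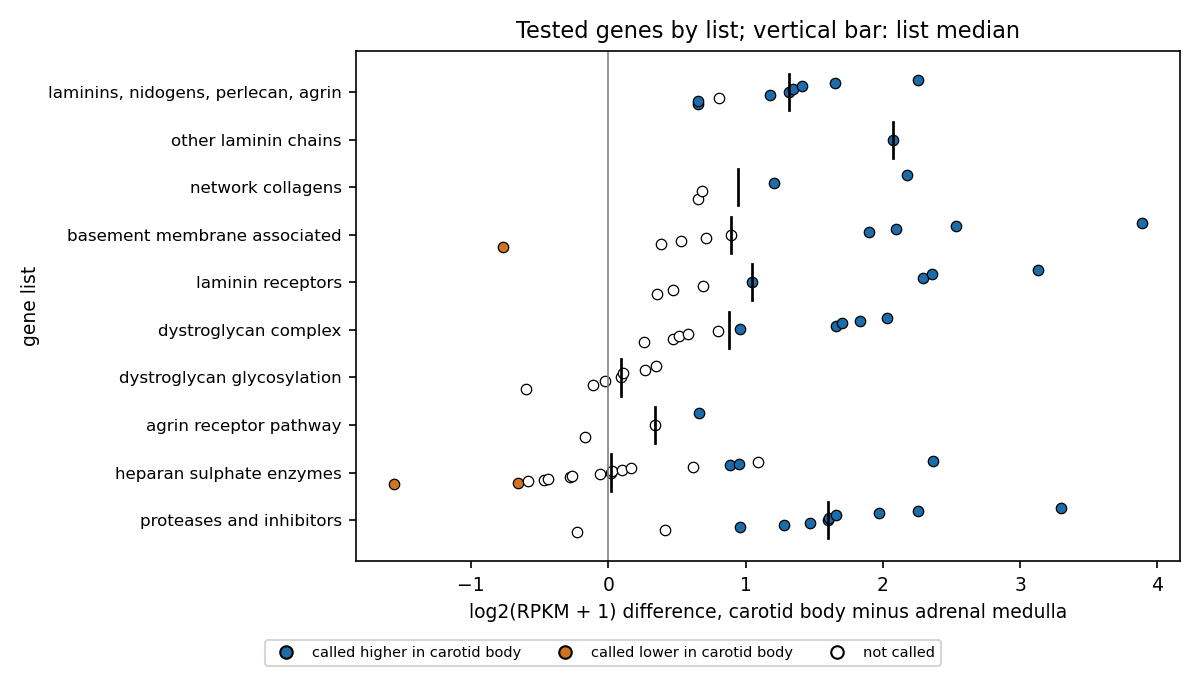
Log2(RPKM + 1) difference, carotid body minus adrenal medulla, of each tested gene in the 10-gene set and in 9 lists of partner genes, filled where called and open where not, with a vertical bar at the list median. Glycosylation and heparan sulphate enzymes centre near 0 (medians 0.09 and 0.02), while the laminin set centres at 1.32 and the proteases and inhibitors at 1.60.

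Of the collagens in the network that nidogens bind, 4 of 8 were tested. The major type IV chains Col4a1 and Col4a2 had overlapping pools, at 16.6 to 33.5 against 11.3 to 23.0 RPKM and 17.9 to 31.7 against 10.3 to 19.7 RPKM, and were not called (adjusted p = 0.229 and 0.165). With pool numbers as a replicate block Col4a2 was called (0.0355). The basement membrane collagens Col18a1 (2.18, adjusted p = 0.00165) and Col15a1 (1.21, 0.00555) were the 2 called higher of 4 tested, beside 14.2% of all tested genes. The minor chains Col4a4, Col4a5 and Col4a6 did not reach the filter, but their pools did not overlap, and with no filter on low values all 3 were called higher (adjusted p = 0.0300, 0.0220 and 0.00162), while Col4a3 was not (0.648). Among 9 tested proteins that associate with basement membranes, 4 were called higher and 1 lower, beside 14.2% and 7.73% of all tested genes. Of these, Ntn4 passed the filter through the carotid body alone. Vwa1, a perlecan-binding matrix protein, was at 61.9, 78.7 and 91.7 against 3.79, 5.27 and 3.76 RPKM, a log2 difference of 3.89. Fbln1 (2.53) and Fbln2 (2.09), the fibulins that bind laminin and nidogen, and Ntn4 (1.90), a netrin that binds laminin gamma chains, were also higher. Smoc1, a calcium-binding matricellular protein, was lower in the carotid body (-0.77, adjusted p = 0.0350), a call that ended without any 1 of the 6 pools (0.0529 to 0.107). Sparc was not called (0.71), but without AM3 its difference of 1.32 was called (adjusted p = 0.0274).

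Of the enzymes that make and trim heparan sulphate, the sugar carried by perlecan and agrin, 3 of 17 tested were called higher and 2 lower, a share near that of all genes. Sulf1, which removes sulphate groups outside the cell, was at 9.59 to 10.4 against 0.668 to 2.04 RPKM (2.36, adjusted p = 2.79e-04). Extl3 (0.89) and Hs3st1 (0.95) were the others called higher. Both calls ended without single pools, that of Extl3 without CB1 (0.0613) or AM2 (0.0728). That of Hs3st1 ended without CB2 (0.0890), CB3 (0.103), AM1 (0.0694) or AM2 (0.0819). It also ended with no filter (0.0516) and with neither CB2 nor AM3 (0.0792). Hs6st1, which adds sulphate to the chain, was lower in the carotid body (-1.56, at 2.12 to 4.97 against 9.45 to 15.5 RPKM), as was Extl1 (-0.66). Proteases and inhibitors that act on basement membrane were called higher for 9 of 11 tested, beside 14.2% of all tested genes. Of the 9, Mmp9 and Prss12 passed the filter through the carotid body alone. The gelatinase Mmp2 was at 33.4, 25.5 and 36.9 against 2.52, 2.08 and 2.36 RPKM (3.30). Prss12, the protease neurotrypsin that cleaves agrin, was at 3.78, 4.51 and 4.43 against 0.143, 0.0537 and 0.0933 RPKM (2.25, adjusted p = 3.15e-05). The inhibitor Timp3 was higher by 1.66, a call that ended without CB1 (0.0814) or AM2 (0.0522), and Timp4 by 1.97, a call that ended with no filter (0.0635) and without any 1 pool other than AM3 (0.0707 to 0.10). Timp2 (1.61) and the aggrecanase Adamts5 (1.60) were also higher. The other 3 called were Mmp9 (1.47), Adamts1 (1.28) and Mmp14 (0.96). The call of Adamts1 ended without CB1 (0.0581) and that of Mmp14 without CB3 (0.0522).

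Lamb2 was the called member with the largest difference, and the genes with the most similar course over the 6 libraries were sought among all those tested. Likeness was measured as the root mean square distance between log2(RPKM + 1) values after each gene was centred on its own mean. The 5 nearest were Bcam (distance 0.14), the endothelial receptor gene Acvrl1 (0.14), the transcription factor gene Nfix (0.14), the secreted BMP antagonist gene Nbl1 (0.15) and the tubulin gene Tubb2b (0.16). In each of these 5, as in Lamb2, CB3 was the highest of its tissue and AM3 the highest of its own, which follows from how they were chosen. With 6 libraries that fall into 2 tissues, many genes follow a similar course.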

How the data were processed

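The authors deposited 1 table of RPKM values per RefSeq entry, and the submitters' processing notes name Bowtie 0.9.8 and the build mm9. Per the labels' protocols, tissue was collected over 2 days into RNAlater, and RNA from an RNeasy Micro kit was amplified (Amino Allyl MessageAmp II) and fragmented. The counting tool, annotation version and strandedness are not given in the sources used here. RPKM times the listed mRNA length was a whole multiple, within 0.01, of the smallest product of the library for 106276 of 106276 values above 0, which gave reads and depth. The 3217 entries with no length hold raw counts and were left out of the tests, leaving 23511.

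Limma 3.58.1 in R 4.3.3 was fitted to log2(RPKM + 1) with a variance trend and no block, over 13357 genes with at least 1 RPKM in at least 3 libraries, two-sided with Benjamini-Hochberg adjustment. The script was tested on simulated data. Ratios were taken between RPKM + 1 values and used exact permutation tests in scipy 1.17.1. Alternatives were pseudocounts of 0.1 and 5, no filter and a filter of 5 RPKM, median-ratio and quantile scaling, voom on recovered reads, the replicate block, each pool left out, and CB2 and AM3 left out together. The pool numbers in the titles are shared between tissues. In their deviations from the tissue means, same-numbered pools had correlations of 0.26, 0.13 and 0.47 across genes. For differently numbered pools the correlations ran from -0.62 to 0.29 (CB2 with AM1), and only the value of pool 3 lay above all of these. Whether the pools were paired was not tested, and the blocked value is given where it changes a call.

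The members and lists were chosen with earlier results of these data known. Some genes of the lists are not reported here and were left out of their counts and sums. Named were all members, up to 6 called genes of each partner list by size of difference, genes needed to spell out a count, leading markers, and the 5 genes most like Lamb2. Other partner genes named, those not called or not tested included, and Acvrl1 to Tubb2b, whose roles are given as background, were described after their values were seen. All 10 member accessions are listed under the same symbol in RefSeq of GRCm38.p6, a later build used for names, overlaps and promoter windows only. Python 3.11.15, numpy 2.4.6, pandas 2.3.3 and matplotlib 3.10.9 served for tables and plots.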

Additional observations from a re-analysis of the deposited data

How the results depend on the processing

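The 9 tested members stayed above 0 in every alternative that tested them. Lama2, Lamb2, Lamc1 and Nid2 kept their calls throughout, while Agrn was called in 7 of 16 settings, Nid1 in 11, Lama5 in 12 of 15 and Lamb1 in 5. The count of members called higher was 5 to 8 when 1 pool was left out, lowest without CB3, 5 with neither CB2 nor AM3, and 9 with the replicate block. None was called lower in any setting. Over all genes, 1460 to 1999 were called higher and 692 to 1464 lower with 1 pool left out, 1103 and 632 with the filter of 5 RPKM, which tests fewer genes, and 1928 and 2067 with neither CB2 nor AM3. Of the calls, 64.7% were higher in the carotid body as reported, 54.96% under quantile scaling and 48.3% without those 2 pools. Of the partner genes, 24 to 31 were called higher and 2 to 4 lower with 1 pool left out, and 6 lower without those 2 pools. The ratio of Lama4 to Lama5 differed by 0.68 to 1.55, and that of Lamb1 to Lamb2 by -1.88 to -1.11, with 1 pool left out. Lama2 to Lama4 ranged from -0.82 to 0.086 and reversed without AM1 (0.021) or AM2 (0.086). Nid1 to Nid2 ranged from -0.40 to 0.051 and reversed without AM1 (0.051) and with a pseudocount of 5 (0.32). Hspg2 to Agrn ranged from -0.30 to 0.10 and reversed without CB1 (0.10) and with a pseudocount of 0.1 (0.40). The cause was not tested. With pool numbers paired, the sign-flip p of the ratios was 0.25 to 0.75, where 3 pairs cannot go lower than 0.25, and the replicate block ended no member's call. Low reads limit Nid2, Lama5 and Hspg2 in the adrenal medulla most.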
